A study of Mus musculus with 4 samples.

Results

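The cell cycle cyclins and cyclin-dependent kinases (CDKs) were read in LSK cells, marrow cells sorted as negative for lineage markers and positive for Sca-1 and c-Kit, a fraction in which hematopoietic stem cells and early progenitors lie. Of 10 named genes, 8 were measured by a probe set annotated to 1 gene, out of 22180 such genes on the array. The G1 genes were the D cyclins Ccnd1, Ccnd2 and Ccnd3, the E cyclin Ccne1 and the kinase Cdk6. The S and G2/M genes were Ccna2, Ccnb2 and Cdk1. Ccne2 shared its only probe set with another gene, and Ccnb1 had no probe set annotated to 1 gene, so neither has a value here. Each of the 8 genes had 1 probe set, and all 8 lay above the floor of 5.475, the median of all log2 values, on all 4 arrays. The genes were named as a family, at a time when earlier results of these arrays were known.

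Cells came from male C57/B6 mice aged 4 months, and each of 4 groups had 1 array. The groups were AMKO mice at day 8 after 150 mg/kg of 5-fluorouracil (AMKO 5FU), Ctrl mice at day 8 after the same dose (Ctrl 5FU), AMKO mice at day 0 (AMKO Basal) and Ctrl mice at day 0 (Ctrl Basal). 5-Fluorouracil is a pyrimidine analog that kills dividing cells, and the dose was given to activate hematopoietic stem cells. The labels do not spell out AMKO, so it is used as the name of a genotype, and they name neither a Cre driver, an allele nor a number of mice pooled for an array. With 1 array in each group no value carries a replicate error, and no difference between 2 arrays has a test. The number of arrays limits the precision.

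Cyclins are the regulatory subunits of CDKs, and each pair acts in its own stretch of the division cycle. D cyclins bind Cdk4 and Cdk6 in G1 and link growth factor signals to phosphorylation of the Rb family, and E cyclins then act with Cdk2 at entry into S phase. Cyclin A2 works in S and G2 phase, and B cyclins with Cdk1 drive mitosis. Transcripts of the A and B cyclins and of Cdk1 accumulate as cells pass through S and G2 phase and are low in resting cells, whereas D cyclin transcripts respond mainly to outside signals. Mouse embryos that lack all D cyclins, or both Cdk4 and Cdk6, have defects of blood formation, and Cdk6 is known as a regulator of the exit of stem cells from quiescence.

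Mitotic genes are known to carry CHR elements and CCAAT boxes near their start, bound by the DREAM complex or B-Myb and by NF-Y, and S phase genes to carry E2F sites. Promoter windows of 300 bases (250 before and 50 after the start, RefSeq, GRCm38.p6) were listed for Ccnd3 (with 2 starts), Ccne1, Cdk6, Ccnb1, Ccnb2 and Cdk1. They were searched on both strands for CHR letters (TTTGAA or TTTAAA), the CCAAT box (CCAAT) and E2F letters (TTTCCCGC, TTTGGCGC, TTTCGCGC or TTTGCCGC). The windows of Ccnb2 (chr9:70421505-70421804, minus strand) and Cdk1 (chr10:69352863-69353162, minus strand) are shown because both genes were among the highest after 5FU, and those of Ccne1 (chr7:38107441-38107740, minus strand) and Cdk6 (chr5:3343643-3343942, plus strand) are shown as G1 genes. Each is written 5′ to 3′ along the gene, and capitals mark the searched letters, on either strand.
Ccnb2: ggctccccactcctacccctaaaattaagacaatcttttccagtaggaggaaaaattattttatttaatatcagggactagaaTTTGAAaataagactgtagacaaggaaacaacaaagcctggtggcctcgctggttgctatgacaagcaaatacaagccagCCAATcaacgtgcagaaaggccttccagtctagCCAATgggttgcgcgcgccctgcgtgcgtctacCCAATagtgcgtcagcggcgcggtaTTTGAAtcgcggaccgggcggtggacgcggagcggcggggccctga
Cdk1: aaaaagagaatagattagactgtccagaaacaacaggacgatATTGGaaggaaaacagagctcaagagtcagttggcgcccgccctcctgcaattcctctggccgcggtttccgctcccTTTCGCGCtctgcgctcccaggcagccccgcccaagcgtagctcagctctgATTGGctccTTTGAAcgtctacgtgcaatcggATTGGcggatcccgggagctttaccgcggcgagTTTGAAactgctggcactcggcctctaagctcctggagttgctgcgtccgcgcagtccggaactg
Ccne1: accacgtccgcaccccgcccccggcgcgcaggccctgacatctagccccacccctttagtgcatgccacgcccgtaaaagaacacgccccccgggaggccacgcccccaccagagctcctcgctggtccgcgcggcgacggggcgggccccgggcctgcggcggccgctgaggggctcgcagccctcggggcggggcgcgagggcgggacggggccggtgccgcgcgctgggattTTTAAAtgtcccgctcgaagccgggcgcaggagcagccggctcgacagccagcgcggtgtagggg
Cdk6: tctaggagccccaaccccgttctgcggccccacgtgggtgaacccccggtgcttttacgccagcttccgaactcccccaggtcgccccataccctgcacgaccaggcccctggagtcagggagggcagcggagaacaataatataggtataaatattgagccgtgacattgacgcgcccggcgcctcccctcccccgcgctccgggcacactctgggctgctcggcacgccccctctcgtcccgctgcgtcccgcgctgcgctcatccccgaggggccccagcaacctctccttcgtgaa

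The Ccnb2 window held 2 CHR matches and 3 CCAAT matches, with CHR letters starting at -167 and at 5 bases after the start, and CCAAT letters starting at -87, -54 and -21. The Cdk1 window held 2 CHR matches, starting at -71 and -15, 3 CCAAT matches on the opposite strand, starting at -208, -80 and -48, and 1 E2F match starting at -131. The Ccnb1 window, of a gene with no value here, held 1 CHR match and 2 CCAAT matches. Among the G1 genes, Ccne1 had 1 CHR match at -15 and no CCAAT or E2F match. Cdk6 had none of the 3 motifs, and Ccnd3 had 1 CCAAT match in 1 of its 2 windows. Of the listed genes, only Cdk1 had an E2F match. Ccnd1, Ccnd2 and Ccna2 had no listed window, so their motifs are not known here. Over all 32851 windows of this length, 27.6% held at least 1 CHR match, 37.4% at least 1 CCAAT match and 2.26% an E2F match, and 6.37% and 11.7% held at least 2 CHR and at least 2 CCAAT matches. The motifs are short and common, and a match describes letters and not a bound site.

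2 arrays stood apart from their labels or from the others. In the Ctrl 5FU array, 10 of 10 mature neutrophil markers were at least 2-fold above Ctrl Basal, with a median level of 10.70 against 5.165. In AMKO, 1 of 10 did so, with medians of 5.34 after 5FU and 5.18 at Basal. Granulocyte and monocyte precursor markers (6 of 7) and B-lineage markers (6 of 8) were also at least 2-fold higher after 5FU in Ctrl, against 0 of 7 and 0 of 8 in AMKO. Xist, which is transcribed from an inactive X chromosome, was at 7.65 in the Ctrl 5FU array, against 3.97 to 4.41 in the others, although all mice were labelled male. In the Ctrl Basal array the median of 8 skeletal muscle markers was 8.675, against 5.375 to 6.0 in the others. Of 4 erythroid markers past the floor, 2 were at least 2-fold higher after 5FU in Ctrl and 0 in AMKO (Slc4a1, -0.46 in AMKO and 2.72 in Ctrl; Ermap, -0.65 and 2.41). Of the T cell markers past the floor, Cd3d and Cd5, neither was 2-fold higher in either genotype. Of the sort markers, Kit was at 11.16, 11.08, 11.87 and 11.84 in AMKO 5FU, Ctrl 5FU, AMKO Basal and Ctrl Basal, and Ly6a, which encodes Sca-1, had no probe set of 1 gene. The part of these other cells in the differences below was not tested. Each difference in AMKO uses neither Ctrl array, but it sets 1 array against 1. Markers also differed between the 2 AMKO arrays, with a median 5FU difference of -1.13 over 4 megakaryocyte markers.

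How the cyclins and CDKs of LSK cells differed at day 8 after 5FU was compared with Basal in each genotype. All 3 S and G2/M genes were at least 2-fold higher after 5FU in AMKO and in Ctrl, with log2 differences between 1.33 and 1.65 in AMKO and between 1.32 and 1.57 in Ctrl. The 5 G1 genes ran from -0.38 to 1.10 in AMKO and from -0.49 to 0.86 in Ctrl. With the sets so drawn, the ranges of the 2 sets of genes did not overlap in either genotype. With Ccne1 moved to the S and G2/M genes, the ranges meet in AMKO, where Ccnd1 and Ccne1 were both at 1.10. Medians were 1.63 in AMKO and 1.36 in Ctrl for the S and G2/M genes, and 0.37 and 0.36 for the G1 genes. Over all 14061 genes past the floor they were 0.03 and 0.01. Of the 8 genes, 5 in AMKO and 3 in Ctrl were at least 2-fold higher, where 4.69% and 5.02% of all genes were. After quantile normalization the AMKO count was 4, since Ccnd1 then differed by 0.92. None was at least 2-fold lower, against 3.55% and 4.46% of all genes. In bulk RNA, more cells in a phase, more transcript per cell and a changed mix of sorted cells cannot be told apart. Of 9 stem and progenitor markers past the floor, 7 were lower and 2 higher after 5FU in each genotype. Of all 14061 genes, 6584 were lower in AMKO and 6880 in Ctrl. Median differences of the markers were -0.36 in AMKO and -0.59 in Ctrl.

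**Figure D1:**
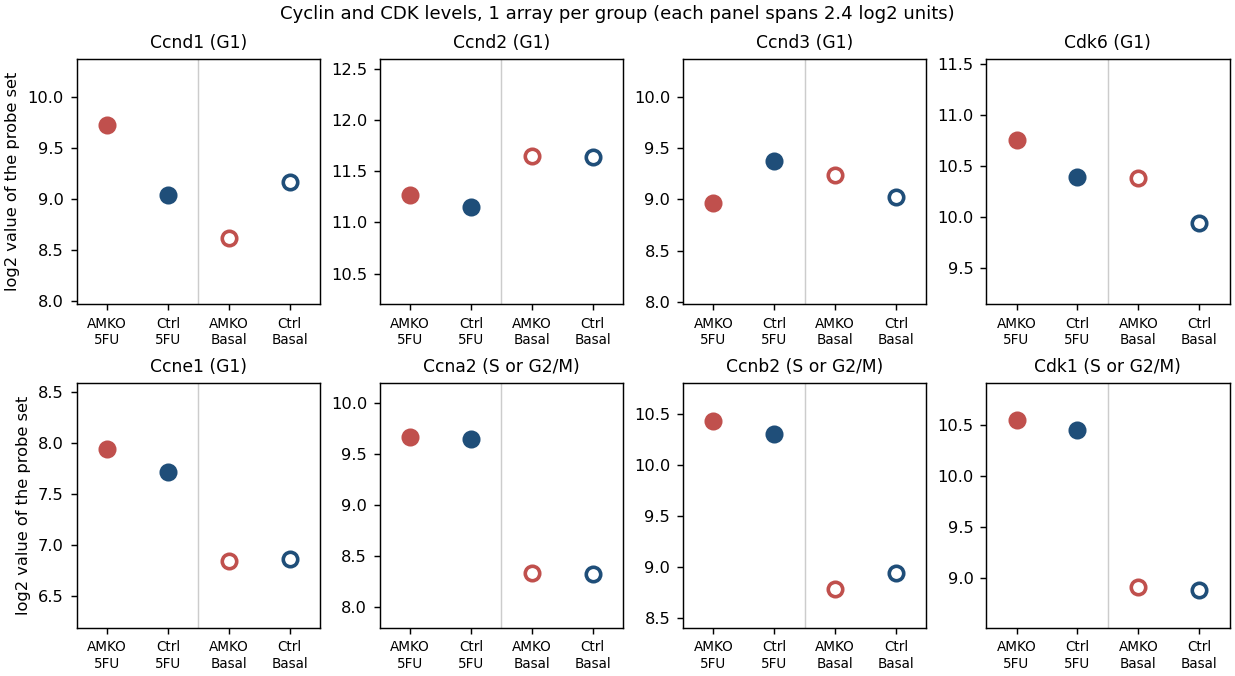
Log2 value of each gene's probe set on each array (red AMKO, blue Ctrl, filled 5FU, open Basal), with 1 point per array and every panel spanning 2.4 log2 units. Ccna2, Ccnb2 and Cdk1 form a high 5FU pair and a low Basal pair, while Ccnd1 and Ccnd3 mix the arrays.

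Cdk1, the kinase that drives entry into mitosis, was at 10.54 in AMKO 5FU and 10.45 in Ctrl 5FU, against 8.91 in AMKO Basal and 8.88 in Ctrl Basal. Both 5FU arrays lay above both Basal arrays, as in 32.0% of all genes. The genotypes lay within 0.09 of each other at each time. The gene was 3.10-fold higher after 5FU in AMKO and 2.97-fold higher in Ctrl. Only 124 of 14061 genes in AMKO and 300 in Ctrl had a difference at least as high.

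Ccnb2, a B cyclin that partners Cdk1 in mitosis, was at 10.43 in AMKO 5FU and 10.30 in Ctrl 5FU, against 8.78 in AMKO Basal and 8.94 in Ctrl Basal. The 5FU pair lay above the Basal pair without overlap, as in 32.0% of all genes. The difference was 3.14-fold in AMKO and 2.57-fold in Ctrl, and 0.825% and 2.89% of all genes had one at least as high.

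Ccna2, the cyclin of S and G2 phase, was at 9.67 in AMKO 5FU and 9.65 in Ctrl 5FU, against 8.34 in AMKO Basal and 8.33 in Ctrl Basal. The genotypes were nearly the same at both times, with differences of 0.02 after 5FU and 0.01 at Basal. The gene was 2.51-fold higher after 5FU in AMKO and 2.50-fold higher in Ctrl, and 1.91% and 3.05% of all genes were at least as high.

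Ccne1, the E cyclin of S phase entry, was at 7.94 in AMKO 5FU and 7.72 in Ctrl 5FU, against 6.84 in AMKO Basal and 6.86 in Ctrl Basal. It was 2.14-fold higher after 5FU in AMKO and 1.82-fold higher in Ctrl, which was the largest difference among the G1 genes in Ctrl and equal to that of Ccnd1 in AMKO. Both 5FU arrays were above both Basal arrays, as in 32.0% of all genes.

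The D cyclins did not move together. Ccnd2 was at 11.27 in AMKO 5FU and 11.15 in Ctrl 5FU, against 11.65 in AMKO Basal and 11.64 in Ctrl Basal. It was the only gene of the 8 with both 5FU arrays below both Basal arrays, a pattern that 27.7% of all genes had, and its differences were -0.38 in AMKO and -0.49 in Ctrl. Ccnd1 was at 9.72 in AMKO 5FU and 9.04 in Ctrl 5FU, against 8.62 in AMKO Basal and 9.17 in Ctrl Basal. Its AMKO arrays were the highest and the lowest of the 4, with the Ctrl arrays between them. The 5FU difference was 1.10 in AMKO (2.14-fold higher) and -0.13 in Ctrl. Ccnd3 was at 8.97 in AMKO 5FU and 9.38 in Ctrl 5FU, against 9.24 in AMKO Basal and 9.02 in Ctrl Basal, so that Ctrl 5FU was the highest array and AMKO 5FU the lowest. Its differences were -0.27 in AMKO and 0.36 in Ctrl, and the arrays of the 2 times overlapped, as they did for Ccnd1.

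Cdk6, the D cyclin partner kinase, was at 10.75 in AMKO 5FU and 10.39 in Ctrl 5FU, against 10.38 in AMKO Basal and 9.94 in Ctrl Basal. Both 5FU arrays lay above both Basal arrays, but Ctrl 5FU and AMKO Basal were 0.01 apart. The 5FU difference was 0.37 in AMKO and 0.45 in Ctrl. In all, 5 of the 8 genes (Ccne1, Cdk6, Ccna2, Ccnb2 and Cdk1) had both 5FU arrays above both Basal arrays, as did 32.0% of all genes.

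**Figure D2:**
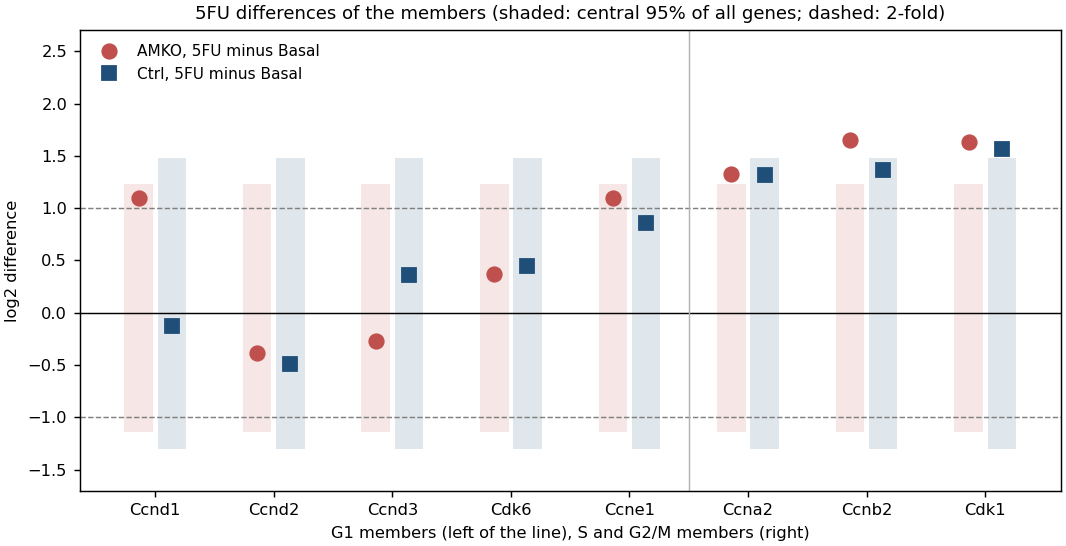
Log2 difference, 5FU minus Basal, of each gene in AMKO (red circles) and Ctrl (blue squares), with the central 95% of all genes shaded (-1.14 to 1.23 in AMKO, -1.30 to 1.48 in Ctrl). The S and G2/M genes lie past 2-fold in both genotypes, and Ccnd1 and Ccne1 (1.10 each) are past it in AMKO alone.

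The 5FU difference averaged over the genotypes was tested with limma on all 4 arrays, with additive terms for treatment and genotype. The fit leaves 1 residual degree of freedom, from the difference between the genotypes' 5FU differences, and combines it with a prior of 2.62 degrees of freedom estimated over all genes. The SE of a gene therefore rests largely on the other genes: that of Ccna2 was 0.12, although its 5FU differences lay 0.01 apart. Averages were 1.60 (SE 0.11) for Cdk1, 1.51 (SE 0.14) for Ccnb2 and 1.33 (SE 0.12) for Ccna2, each with an adjusted p of 0.0697 over all genes, which did not pass 0.05. Ccne1 followed with 0.98 (SE 0.15, adjusted p 0.0764), then Cdk6 with 0.41 (SE 0.10, adjusted p 0.121) and Ccnd2 with -0.44 (SE 0.10, adjusted p 0.0998). Ccnd1, with 0.49 and an SE of 0.34, had an adjusted p of 0.427, and Ccnd3, with 0.05 and an SE of 0.20, had 0.908. The fit called 0% of genes in either direction, and its smallest adjusted p was 0.0697. At an unadjusted p under 0.05 it held 5 of the 8 genes as higher and Ccnd2 as lower, where 15.7% and 12.1% of all genes were.

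**Figure D3:**
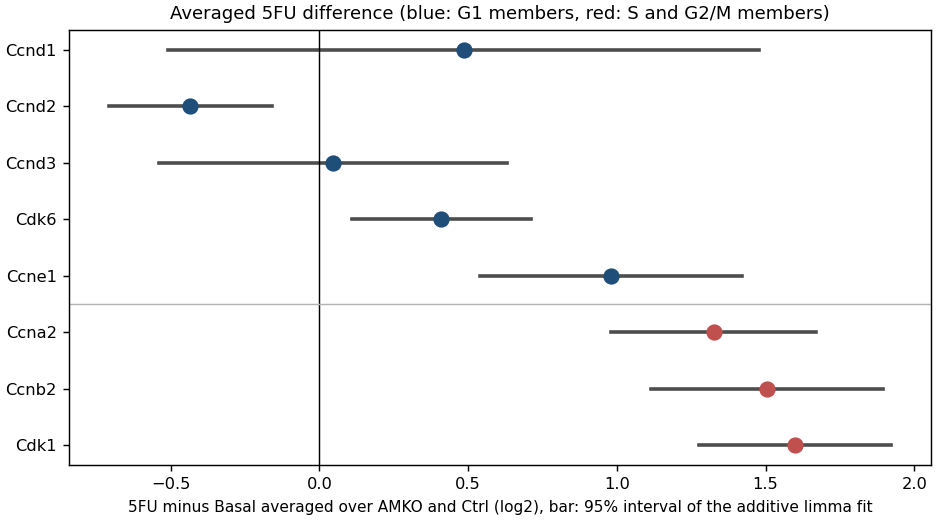
5FU minus Basal averaged over AMKO and Ctrl (log2) for each gene, with bars for the 95% interval of the additive limma fit. The intervals of Cdk1 (1.28 to 1.92), Ccnb2 (1.12 to 1.90) and Ccna2 (0.98 to 1.67) lie above those of the D cyclins Ccnd2 and Ccnd3, and that of Ccnd1 (-0.51 to 1.48) is the widest.

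The call depended on how the values were handled. Ccna2, Ccnb2 and Cdk1 passed an adjusted p of 0.05 after median centring, where 0.705% of all genes were called higher. They passed together with Ccne1 with robust estimation (5.29%), with a floor at the 75th percentile (10.2%) and after quantile normalization (3.12% higher and 3.62% lower), where Ccnd2 was called lower as well. Each array was also left out in turn, in a fit of treatment alone on the other 3. In such a fit the arm left with 1 array is assumed to vary like the other, and genotype is mixed into the difference. The adjusted p of the 3 genes was 0.0764 without Ctrl 5FU, 0.192 without AMKO Basal and 0.16 without Ctrl Basal. Without AMKO 5FU it was 0.0348 for Cdk1 and 0.038 for Ccnb2 and Ccna2 (2.03% of all genes called higher), but there the Ctrl 5FU array, with its markers of other cells, is the only 5FU array and the spread is that of the Basal pair. The AMKO 5FU array minus the mean of both Basal arrays, which leaves Ctrl 5FU out, was 1.65 for Cdk1, 1.57 for Ccnb2 and 1.34 for Ccna2. That mean still holds the Ctrl Basal array with its muscle markers.

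AMKO and Ctrl were then compared at each time. None of the 8 genes was 2-fold higher or lower in AMKO, after 5FU (0.74% of all genes higher and 2.63% lower) or at Basal (0.228% and 0.697%). The S and G2/M genes differed by 0.02 to 0.13 after 5FU and by -0.16 to 0.03 at Basal. The G1 genes spread more widely, from -0.41 to 0.68 after 5FU and from -0.55 to 0.44 at Basal.

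Ccnd1 had the largest genotype difference of the 8 genes at each time, and in opposite directions. It was 0.68 higher in AMKO after 5FU, where 2.80% of all genes were at least as high, and 0.55 lower in AMKO at Basal, where 4.35% were at least as low. Cdk6 was higher in AMKO at both times, by 0.36 after 5FU and 0.44 at Basal, where 13.9% and 6.17% of all genes were at least as high. No gene of the 8 had both AMKO arrays above both Ctrl arrays (12.9% of all genes) or below them (7.52%). Averaged over both times, Cdk6 was 0.40 higher in AMKO with an SE of 0.10 and an adjusted p of 0.906 in the additive limma fit, and the other 7 genes lay between -0.10 and 0.10. The fit called 0% of genes for AMKO, with 446 at an unadjusted p under 0.05 (1.66% higher and 1.51% lower, Cdk6 among the higher genes). The comparison after 5FU uses the Ctrl 5FU array with its neutrophil and B-lineage markers, and the Basal comparison the Ctrl Basal array with its muscle markers.

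**Figure D4:**
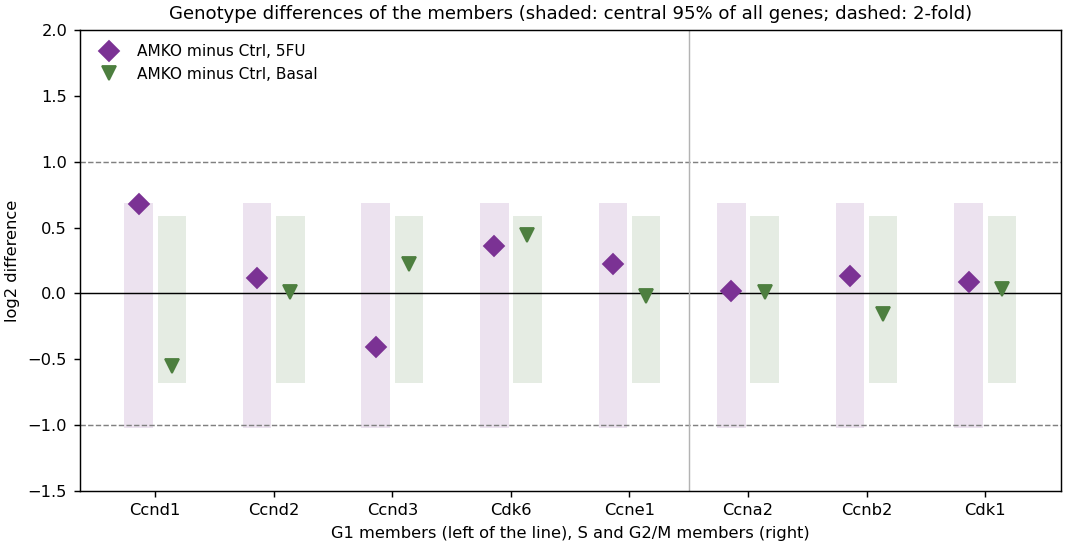
Log2 difference, AMKO minus Ctrl, of each gene after 5FU (purple diamonds) and at Basal (green triangles), with the central 95% of all genes shaded (-1.02 to 0.69 after 5FU, -0.68 to 0.59 at Basal). Ccnd1 is at 0.68 after 5FU and -0.55 at Basal, and Ccna2, Ccnb2 and Cdk1 lie close to 0.

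The difference of the 5FU differences, AMKO minus Ctrl, could not be tested on 4 single arrays. It was 1.23 for Ccnd1 and -0.63 for Ccnd3, and between -0.08 and 0.29 for the other 6 genes. It was at least 2-fold for Ccnd1 alone, beside 2.57% of all genes higher and 2.94% lower.

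Genes around the cyclins and CDKs were read from 6 lists, with counts past an unadjusted p of 0.05 in the additive limma fit, since 0 genes passed the adjusted p. At that threshold 15.7% of all genes were higher and 12.1% lower, and each list's count is to be read against these shares. Of 7 partner genes past the floor, 6 were higher after 5FU and 0 lower, with list medians of 0.62 in AMKO and 0.33 in Ctrl. The CDK-binding subunits Cks2 (1.69 in AMKO and 1.15 in Ctrl) and Cks1b (1.03 and 1.29) had the largest differences. Cdk4, the other D cyclin kinase, differed by 0.62 and 0.31, and Cdk2, the E and A cyclin kinase, by 0.31 and 0.23, with an adjusted p of 0.233. Cdk7 (0.59 and 0.41) and Mnat1 (0.78 and 0.33) belong to the CDK-activating kinase.

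Of 6 genes that set CDK phosphorylation, 4 were higher at the unadjusted p and 0 lower (15.7% and 12.1% over all genes), with medians of 0.86 in AMKO and 1.06 in Ctrl. The mitotic kinases Plk1 (1.51 in AMKO and 1.82 in Ctrl) and Aurka (1.57 and 1.55) and the CDK1-activating phosphatase Cdc25c (1.03 and 1.69) were at least 2-fold higher in both genotypes. Cdc25a, the phosphatase that acts on Cdk2, differed by 0.68 and 0.56. Of 12 genes of cyclin turnover, 9 were higher and 0 lower against the same shares, with medians of 0.59 in AMKO and 0.43 in Ctrl. Ube2c, the ubiquitin-conjugating enzyme of the anaphase-promoting complex, had 1.90 and 1.33, and its activator Cdc20 had 1.13 and 1.34. Ube2s, which extends the chains, had 0.63 and 0.94, and Skp2, which directs p27 to degradation, had 0.68 and 0.93.

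Of 12 transcription factors of cyclin genes, 7 were higher and 0 lower at the unadjusted p (15.7% and 12.1% over all genes), with medians of 0.61 in AMKO and 0.58 in Ctrl. E2f8, a repressor of the E2F family, had 1.32 in AMKO and 1.59 in Ctrl, and Mybl2, which encodes B-Myb, had 1.23 and 1.33. Foxm1, an activator of mitotic genes, had 0.57 and 1.14, and Lin9, of the MuvB core that binds CHR elements in the DREAM and B-Myb complexes, had 1.40 and 0.24 and was not among the 7. The CDK inhibitors and Rb family, 10 genes, had 3 higher and 1 lower, the lower count being near the share over all genes, with medians of 0.10 in AMKO and 0.38 in Ctrl. Rbl1, which encodes p107, had 1.24 and 0.59, and Cdkn1a, which encodes p21, had 1.10 and 0.40. Cdkn2d, an inhibitor of Cdk4 and Cdk6, had 0.78 and 0.46, and Rbl2, which encodes p130, had -0.30 and -0.68.

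Among 18 cyclins and CDKs with other main roles, such as transcription, 1 was higher and 2 lower, which is no more than the shares of 15.7% and 12.1% over all genes, and the medians were 0.03 in AMKO and -0.01 in Ctrl. Ccnc, the cyclin of the Mediator kinase module, had 1.14 in AMKO and 0.34 in Ctrl. Cdk5 (-0.53 and -0.37), Cdk14 (-0.46 and -0.44) and Ccnl2 (-0.44 and -0.33) were negative in both. All 6 markers of cycling cells were higher at an unadjusted p under 0.05, as were 15.7% of all genes, with medians of 1.13 in AMKO and 1.15 in Ctrl. Birc5, a chromosomal passenger protein of mitosis (1.88 and 1.54), Rrm2, a ribonucleotide reductase subunit (1.77 and 1.59), and Top2a, a topoisomerase (1.36 and 1.23), were at least 2-fold higher in both genotypes, and Mcm2 (0.89 and 0.81), Mki67 (0.79 and 1.06) and Pcna (0.63 and 0.49) had smaller differences.

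**Figure D5:**
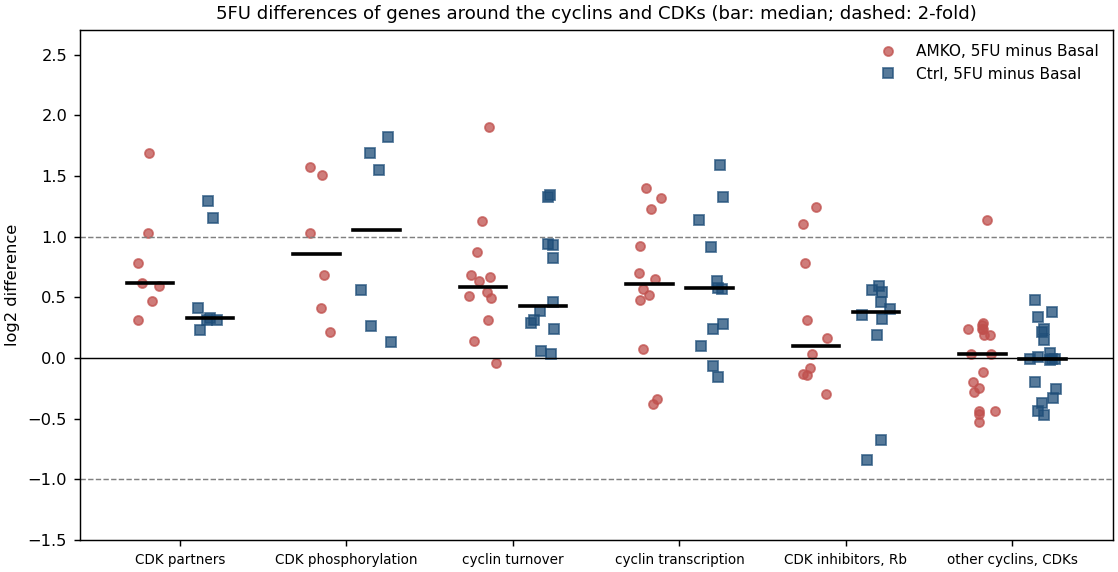
Log2 difference, 5FU minus Basal, of each gene past the floor in 6 lists, in AMKO (red circles) and Ctrl (blue squares), with bars at the list medians. Genes of CDK phosphorylation have medians of 0.86 and 1.06, and cyclins and CDKs with other main roles lie around 0 with medians of 0.03 and -0.01.

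Genes with the most similar profile over the 4 arrays were sought for 3 of the genes among the other 14060, by the Euclidean distance between values centred on each gene's mean. For Ccnb2 they were Tspan2 (distance 0.07), Serp1 (0.11), Tacc3 (0.12), Me2 (0.12) and Atp1b3 (0.13), of which Tacc3 encodes a mitotic spindle protein. For Ccnd1 they were Gla (0.04), Slx4ip (0.08), Cyb5r3 (0.09), 1700091H14Rik (0.10) and Usp18 (0.11). For Cdk6 they were Usp14 (0.04), 1600010M07Rik (0.07), Bpgm (0.08), Polr3g (0.08) and Tbc1d22b (0.08). With 4 arrays, such likeness is a description of these arrays.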

How the data were processed

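Expression was measured on 4 Affymetrix arrays of mouse LSK cells, 1 per group. Total RNA from a Qiagen micro column was made into biotinylated cRNA by Affymetrix's standard procedure, per the labels' protocols. The authors' deposited values, 1 per probe set and array, were read as log2 because they lay between 1.99 and 13.43. How they were background-corrected and normalized is not given in the sources used here, and no further scaling was applied. Array medians were 5.44 (AMKO 5FU), 5.43 (Ctrl 5FU), 5.55 (AMKO Basal) and 5.47 (Ctrl Basal).

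The platform annotation named 1 gene for 23521 of 34472 probe sets, several for 1814 and none for 9137. Entrez identifiers gave current symbols (RefSeq, GRCm38.p6) for 23328. The probe set with the highest mean stood for a gene, and genes whose highest value reached 5.475, the median of all values, were kept (14061 of 22180). Differences are between single arrays, with 2-fold as the size counted. Averaged effects came from limma 3.58.1, run in R 4.3.3 (functions lmFit and eBayes with an intensity trend, prior degrees of freedom 2.62), two-sided, with Benjamini-Hochberg adjustment over all kept genes. A run on data simulated from the fit's own prior required only that planted changes be recovered on average. It does not check the p-values on these arrays. The fit has 1 residual degree of freedom, so its p-values do not measure a spread of replicates.

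The genes and lists were chosen with earlier results of these data known. Named genes were the cyclins and CDKs, and up to 4 per list by the largest absolute value of the 5FU difference averaged over the genotypes. Cdk2, Cdk4, markers of cycling cells and the 5 nearest profiles of 3 genes were named as well. Ccnb2 took the place of Ccnb1 there after the data were seen. Other marker lists were stem and progenitor (median 5FU difference -0.36 in AMKO and -0.59 in Ctrl), erythroid (-0.22 and 1.57) and megakaryocyte (-1.13 and -0.91) genes.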

Additional observations from a re-analysis of the deposited data

Results flagged for a closer look

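2 of the cyclins had 5FU differences of opposite sign in the genotypes, each resting on 1 array per group, and the difference between the genotypes was not tested. For Ccnd1 the 5FU difference was 1.10 in AMKO and -0.13 in Ctrl, which makes the AMKO minus Ctrl value 1.23. For Ccnd3 it was -0.27 in AMKO and 0.36 in Ctrl, which makes the value -0.63.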

How the results depend on the processing

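The limits are 1 array per group and an unknown normalization. No paired analysis was possible because the labels give no replicate numbers and each group has 1 array. The 5FU effect averaged over genotypes called 0 genes, and 947 after quantile normalization, 161 after median centring, 1293 with a floor at the 75th percentile and 1315 with robust estimation. Of the 8 cyclins and CDKs, these settings called 5, 3, 4 and 4. No floor, the mean of probe sets and a fit without a trend called 0 genes, with 4422, 3856 and 3721 at an unadjusted p under 0.05. The cause of these unlike counts was not tested. The higher floor also kept fewer genes (8228). Leaving out each array in turn, with treatment alone, gave 0 to 461 genes and 0 to 3 of the 8, and the 461 and the 3 came without the AMKO 5FU array. With the E cyclin counted among the S and G2/M genes, the G1 median of the AMKO 5FU difference was 0.05. At a size of 3-fold, 2 of the 8 genes, Ccnb2 (3.14-fold) and Cdk1 (3.10-fold), were higher after 5FU in AMKO and 0 in Ctrl. In Ctrl they were 2.57-fold and 2.97-fold higher, so Cdk1 lay close to the cut in both genotypes. At 1.5-fold 1 gene, Ccnd1, was higher in AMKO than in Ctrl after 5FU. The shares of all genes at these sizes were not counted. All 10 medians of the G1 and of the S and G2/M genes moved by less than 0.25 under both scalings. The other floors and the mean of probe sets could not move them, since all 8 genes stay past every floor with 1 probe set each. Each of the 8 genes has 1 probe set, so no other could be tried.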
